A study of Homo sapiens with 4 samples.

Results

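Collagens, laminins, integrins and a small set of matrix glycoproteins were followed in PC3 cells, an established human prostate cancer line, after lentiviral shRNA against ALKBH3. The genes were chosen by name, as the collagen chain genes, the laminin chain genes, the integrin subunit genes and FN1, TNC, THBS1, THBS2, SPARC, NID1 and NID2. They came to 90 of the 19102 genes named on the arrays, and 69 of the 90 gave a signal above background that could be tested. One further gene that the integrin name pattern takes in, ITGBL1, encodes an integrin-like secreted protein and not a subunit. It is counted among the 90 and described apart from the families.

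ALKBH3 is a dealkylating enzyme that removes methyl groups from single-stranded DNA and RNA. PC3 cells had been infected with lentivirus carrying an ALKBH3 shRNA or a control shRNA directed against GFP, selected with puromycin, and collected 48 h or 96 h into selection, with 1 single-colour Agilent array for each shRNA and time point. All 4 cultures therefore carried a lentiviral shRNA and had been under puromycin, and no untreated cells were measured. The model is 1 cell line in culture, and neither the ALKBH3 shRNA construct nor the independence of the cultures is stated in the labels, so p-values measure only the spread between these 4 samples.

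Collagens are triple helical proteins that form fibrils, sheets and networks outside the cell. Laminins are cross-shaped trimers of an alpha, a beta and a gamma chain that assemble with type IV collagen, nidogens and perlecan into the basement membrane, the thin sheet under epithelia. Integrins are pairs of an alpha and a beta subunit that span the membrane, bind these matrix proteins and tie them to the actin cytoskeleton, and the laminin receptors among them anchor basal prostate epithelium.

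Signal is given throughout as log2 intensity relative to the 75th percentile of its own array, so that a difference of 1 is a 2-fold change. At 48 h the arrays read -0.73 (control) and -2.48 (knockdown) for ALKBH3 itself, and at 96 h they read -0.89 and -2.40. ALKBH3 fell by 1.63 on the log2 scale, in the direction the labels give, past the cutoffs of at least 2-fold and an unadjusted limma p under 0.05 (adjusted p = 0.312, and 0.0351 with time point as a block). Between 67.0% and 70.9% of probes were well above background on an array, and the median difference between control and ALKBH3 shRNA arrays was 0.147 at 48 h and 0.142 at 96 h in absolute log2 value. The 2 time points lay on different slides, so that time and slide cannot be told apart, while each shRNA comparison within a time point lay on 1 slide.

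The 6 markers listed for epithelium and PC3 were KRT8, KRT18, KRT19, EPCAM, CDH1 and VIM, of which VIM is a mesenchymal gene. All 6 were above background, with a summed linear signal between 235 and 264 times the 75th percentile on the 4 arrays. KLK3, which PC3 cells are known to lack or hold at low levels, was not above background. Within that list EPCAM was higher with ALKBH3 shRNA by 0.98, and CDH1, the epithelial cadherin, fell by 1.33 between 48 h and 96 h, past the same cutoffs. Of 9 fibroblast markers, 5 were tested, with sums of 0.794 (48 h) and 0.507 (96 h) on the control arrays against 1.16 and 0.851 on the ALKBH3 shRNA arrays, while COL1A2, FAP, PDGFRB and THY1 were not well above background on at least 2 arrays. Most of that sum was COL1A1, itself among the 69 genes, with 0.589 and 0.367 on the control and 0.839 and 0.686 on the ALKBH3 shRNA arrays. COL3A1, also among them, was lower with ALKBH3 shRNA by 0.08 at 48 h and 0.78 at 96 h. The other 3, PDGFRA, DCN and LUM, summed to 0.183 and 0.116 on the control and to 0.299 and 0.15 on the ALKBH3 shRNA arrays, and PDGFRA differed by 0.15 at 48 h and -0.32 at 96 h. The 4 endothelial markers summed to 0.849 and 0.897 on the control and to 0.565 and 0.496 on the ALKBH3 shRNA arrays, and the 5 tested of 7 leukocyte markers to between 0.225 and 0.233 on every array. The part of these markers in the matrix gene results was not tested.

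Collagen, laminin and integrin genes were found both among the 69 tested genes and among the 21 not tested. All 4 arrays were above background for 68 of the 69 tested genes, and for ITGB3 only the 48 h arrays were. The type I collagen trimer was covered on 1 side only, since COL1A1 was above background and COL1A2 was not. Among the type IV chains COL4A1, COL4A2, COL4A5 and COL4A6 were above background, whereas COL4A3 was above on none and COL4A4 on 1 of the 4 arrays. The other genes without a tested probe were COL5A3, COL6A5, COL6A6, COL11A1, COL15A1, COL17A1, COL19A1, COL22A1, COL25A1, COL28A1, LAMA1, LAMB4, ITGA8, ITGAD, ITGAL, ITGAX, ITGB6 and THBS2. For these 21 genes no comparison is given with the filter, since a level below background has no exact size. Calls made without the filter on dim probes are given at the end for COL6A5, COL22A1 and THBS2. In each family 1 gene was named as the one with the brightest probe, namely COL5A2, COL4A2, COL6A1, COL12A1, COL13A1, COL18A1, LAMB2, ITGA3, ITGB4 and NID1, without ranking genes against each other.

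No matrix or integrin gene passed the 2-fold and p cutoffs between ALKBH3 and control shRNA. The background over all 14782 genes tested was 1% higher and 0.23% lower, so that a count of 0 and 0 among 69 genes lay near it. At an unadjusted limma p below 0.05 without a fold cutoff, 7 genes (10.1%) were higher and 5 (7.25%) were lower, against 4.51% and 3.44% of all genes. After Benjamini-Hochberg adjustment over all genes the limma fit without a block called 0 genes, members or not, with a smallest adjusted p of 0.368 among the 69, while 12 of the 69 and 1175 of all genes had an unadjusted p under 0.05. With the time point as a block, the adjusted p was below 0.05 for LAMB3, LAMC3, COL4A6 and COL12A1, which rose, and for NID1 and ITGB1, which fell. These are 5.8% and 2.9% of the 69, against 1.73% and 0.812% of all genes. The median log2 fold change of the 69 was 0.02 beside -0.0014 over all genes, and its sign depended on the scaling, from -0.01 with normexp, quantile or the authors' values to 0.05 with the 75th percentile taken over probes above background on all arrays. The 2 shRNAs gave signals that did not overlap for 28 of the 69 genes, against 35.9% of all genes. At both time points 29 (42%) were higher and 24 (34.8%) lower, against 34.4% and 34.9% of all genes. Single arrays moved calls. Leaving out the 48 h control array brought COL1A1 (1.05) and COL4A6 (1.42) past the cutoffs, leaving out the 48 h ALKBH3 shRNA array NID1 (-1.24) and SPARC (-1.66), and leaving out the 96 h control array ITGA4 (1.02) and NID1 (-1.12).

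**Figure D1:**
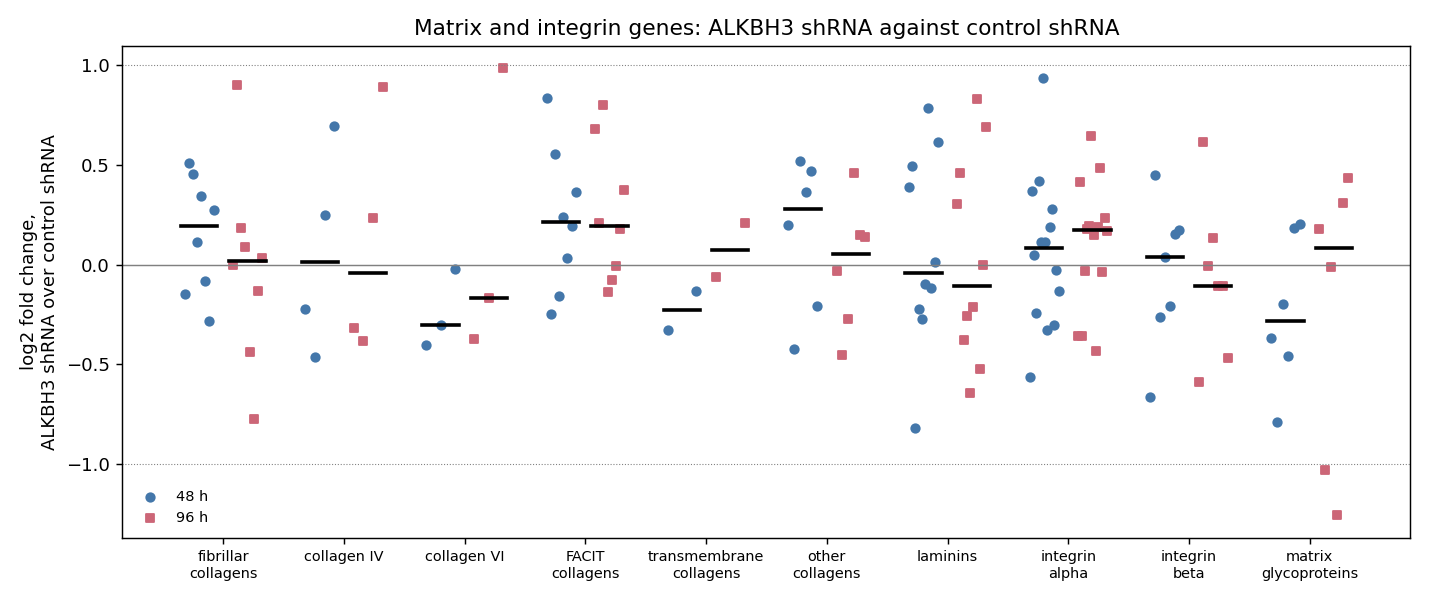
Log2 fold change, ALKBH3 shRNA over control shRNA (vertical axis), of each of 68 tested genes by family, with circles for 48 h, squares for 96 h, a black bar for the family median and dotted lines at a 2-fold change. Each point compares 1 array with 1 array. Values lie on both sides of 0 in all families, and only NID1 (-1.03) and SPARC (-1.26), both at 96 h, are beyond a 2-fold change, which 0.446% of all genes were on the lower side at that time.

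Laminin chains differed in both directions. LAMB3 encodes the beta chain of the laminin that anchors epithelia through hemidesmosomes. The LAMB3 signal was 3.05 with control and 3.84 with ALKBH3 shRNA after 48 h, and 2.97 and 3.80 after 96 h. Both ALKBH3 shRNA arrays lay above both control arrays, and LAMB3 rose by 0.81 (SE 0.115, limma adjusted p = 0.368, and adjusted p = 0.0373 with time point as a block). Its limma adjusted p lay between 0.328 and 0.768 under the other settings. LAMA3, the alpha chain of that trimer, had a signal of 2.88 and 3.38 at 48 h and 2.27 and 2.73 at 96 h, a difference of 0.48 that did not pass the test (SE 0.317, limma adjusted p = 0.837, and adjusted p = 0.0638 with time point as a block).

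LAMC3, a gamma chain found in other laminins, had a signal of -3.08 with control and -2.47 with ALKBH3 shRNA after 48 h, and of -3.18 and -2.49 after 96 h. It rose by 0.65 (SE 0.116, limma adjusted p = 0.383, and adjusted p = 0.0463 with time point as a block), and its second tested probe was higher by 0.54. LAMC3 was picked out after its values were seen, since it is outside the 5 largest rises.

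LAMB1, the beta chain of widely expressed laminins, went from 3.45 to 3.18 at 48 h and from 3.56 to 2.92 at 96 h, with the ALKBH3 shRNA arrays below the control arrays. Its difference was -0.46 (SE 0.145, limma adjusted p = 0.573, and adjusted p = 0.125 with time point as a block). LAMA4, the alpha chain of vessel and muscle laminins, differed by -0.60 on its brightest probe (limma adjusted p = 0.707, and adjusted p = 0.099 with time point as a block), and the other probes of the gene gave -0.66, -0.10 and 0.02. LAMA5 and LAMC1, partners of LAMB1 in common laminins, differed by -0.24 and -0.32, and LAMB2, another beta chain, by -0.15. Of the 10 laminin chains tested, 5 had a positive and 5 a negative difference, and their median was -0.07. The sign was the same at both time points for all 10, as it was for 10245 of all 14782 genes tested.

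The nidogens link laminin to type IV collagen. NID1 had a signal of 1.23 with control and 0.45 with ALKBH3 shRNA after 48 h, and of 0.81 and -0.22 after 96 h. The groups did not overlap, and NID1 fell by 0.91 on the log2 scale (SE 0.288, limma adjusted p = 0.573, and adjusted p = 0.0402 with time point as a block). NID2 differed by -0.10, with values of -1.14 and -1.34 at 48 h and -1.82 and -1.83 at 96 h. SPARC, a collagen-binding protein of the matrix, went from 0.74 to 0.28 at 48 h and from -0.07 to -1.33 at 96 h, a mean difference of -0.86 (SE 0.613, limma adjusted p = 0.857, and adjusted p = 0.115 with time point as a block). The SPARC values of the 2 shRNAs overlapped across time points. FN1, which encodes fibronectin, differed by -0.37 at 48 h and 0.18 at 96 h, and THBS1 and TNC, both matricellular proteins, by 0.25 and 0.32 over the 4 arrays, none past the test.

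The promoter bases just before the start of LAMB3 and NID1, which changed in opposite directions, are shown from the RefSeq table of GRCh38.p14, which held promoters for 66 of the 90 genes. The LAMB3 stretch is chr1:209652426-209652575 on the minus strand and the NID1 stretch chr1:236065091-236065240 on the minus strand, each the 150 bases before the outermost start of the gene. Capitals mark letters like an NF-kB site (GGG and CC with any 5 bases between them) or GGGCGG, a GC box, on either strand, with overlapping matches joined. Of 35116 promoter windows of 300 bases in the table, 58.7% held the former and 45% the latter, so these letters are common. Among the 6 genes that changed with time point as a block, 5 had a promoter in the table. In the 300-base windows COL12A1, ITGB1, LAMB3 and NID1 held both kinds while COL4A6 held neither. The 150 bases shown for NID1 held only the NF-kB-like letters, and its GGGCGG lay outside them. TGANTCA, letters like an AP-1 site, and TATAAA were in none of the 5 windows, against 7.71% and 11.5% of all windows. These matches are a description of the letters only.
LAMB3: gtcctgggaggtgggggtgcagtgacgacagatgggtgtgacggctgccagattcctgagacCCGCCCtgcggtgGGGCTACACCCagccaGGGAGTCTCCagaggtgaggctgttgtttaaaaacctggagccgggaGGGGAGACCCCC
NID1: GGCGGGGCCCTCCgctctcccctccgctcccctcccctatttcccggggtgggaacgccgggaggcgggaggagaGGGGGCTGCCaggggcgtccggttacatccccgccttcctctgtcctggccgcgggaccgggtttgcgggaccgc

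Among integrins, the shared beta subunit ITGB1 was lower. ITGB1 pairs with most collagen and laminin binding alpha subunits. The ITGB1 signal was 1.54 with control and 0.88 with ALKBH3 shRNA after 48 h, and 1.26 and 0.67 after 96 h. Both ALKBH3 shRNA arrays lay below both control arrays, and ITGB1 fell by 0.63 on the log2 scale (SE 0.162, limma adjusted p = 0.46, and adjusted p = 0.0474 with time point as a block). ITGA6, the alpha subunit of laminin receptors, was 2.87 and 2.54 at 48 h and 2.96 and 2.52 at 96 h, a difference of -0.38 (limma adjusted p = 0.541, and adjusted p = 0.0942 with time point as a block) with -0.53 on a second probe. ITGB4, the partner of ITGA6 in hemidesmosomes, differed by 0.09, and ITGA3, a laminin receptor subunit that pairs with ITGB1, by 0.15, neither past the test. The collagen receptor subunits ITGA1, ITGA2, ITGA10 and ITGA11 differed by -0.46, -0.14, 0.39 and -0.15, and ITGAV and ITGA5, which bind fibronectin and related ligands, by 0.02 and 0.13, again none past the test.

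ITGA4, best known as a leukocyte integrin subunit, was dim, with -5.68 and -4.74 at 48 h and -5.22 and -4.57 at 96 h. Its difference was 0.79 (SE 0.198, limma adjusted p = 0.456, and adjusted p = 0.051 with time point as a block). With normexp the ITGA4 difference was only 0.16, so its size depended on the background correction. A second ITGA4 probe was above background on the 96 h ALKBH3 shRNA array only. ITGA9, the closest relative of ITGA4, differed by 0.38 (limma adjusted p = 0.606, and adjusted p = 0.111 with time point as a block). Over all 21 integrin subunits tested, 12 differences were positive and 9 negative, with a median of 0.02.

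Collagen differences were small and mixed, with 18 of 31 tested chains positive and 13 negative and a median of 0.08. COL12A1, a collagen of the fibril-associated group, had a signal of 1.16 with control and 2.0 with ALKBH3 shRNA after 48 h, and of 1.57 and 2.25 after 96 h. The arrays of the 2 shRNAs did not overlap, and COL12A1 rose by 0.76 (SE 0.195, limma adjusted p = 0.464, and adjusted p = 0.0434 with time point as a block), with 0.71 on a second probe. COL4A6, a type IV chain, was -1.62 and -0.92 at 48 h and -2.86 and -1.97 at 96 h. It rose by 0.79 within the blocked fit (limma adjusted p = 0.0435), although its values overlapped across time points and the adjusted p was 0.853 without a block.

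COL1A1, the main chain of type I collagen, went from -0.76 to -0.25 at 48 h and from -1.44 to -0.54 at 96 h, a difference of 0.71 that did not pass (SE 0.272, limma adjusted p = 0.642, and adjusted p = 0.0693 with time point as a block). COL16A1 and COL7A1, the latter the collagen of anchoring fibrils, differed by 0.68 and 0.41 at an unadjusted p under 0.05, and a second COL16A1 probe gave -0.06. COL6A1 was the 1 collagen chain lower at that threshold, with 6.22 and 5.82 at 48 h and 6.03 and 5.65 at 96 h, a difference of -0.39 (SE 0.141, limma adjusted p = 0.62, and adjusted p = 0.0854 with time point as a block). COL6A2, its partner, differed by -0.24, and COL6A3 by -0.02 at 48 h and 0.99 at 96 h. The paired chains COL4A1 and COL4A2 differed by -0.27 and -0.42, neither past the test.

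A second COL20A1 probe was not well above background on both control arrays and was above it on both ALKBH3 shRNA arrays, where the signal was -5.96 at 48 h and -5.45 at 96 h. Against the lowest signal flagged above background on each control array, that probe was higher with ALKBH3 shRNA by 1.95-fold. Some probes not flagged on those arrays read above that level, so 1.95-fold is no firm bound. This probe passed the filter only through the ALKBH3 shRNA arrays, where it was brighter, so its difference is no evidence of a change. The brighter probe of the gene, which stands for it here, differed by -0.15, so the 2 probes disagreed. Of 15 genes with several tested probes, 11 had the same sign on all probes in the shRNA comparison and 13 in the time comparison.

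**Figure D2:**
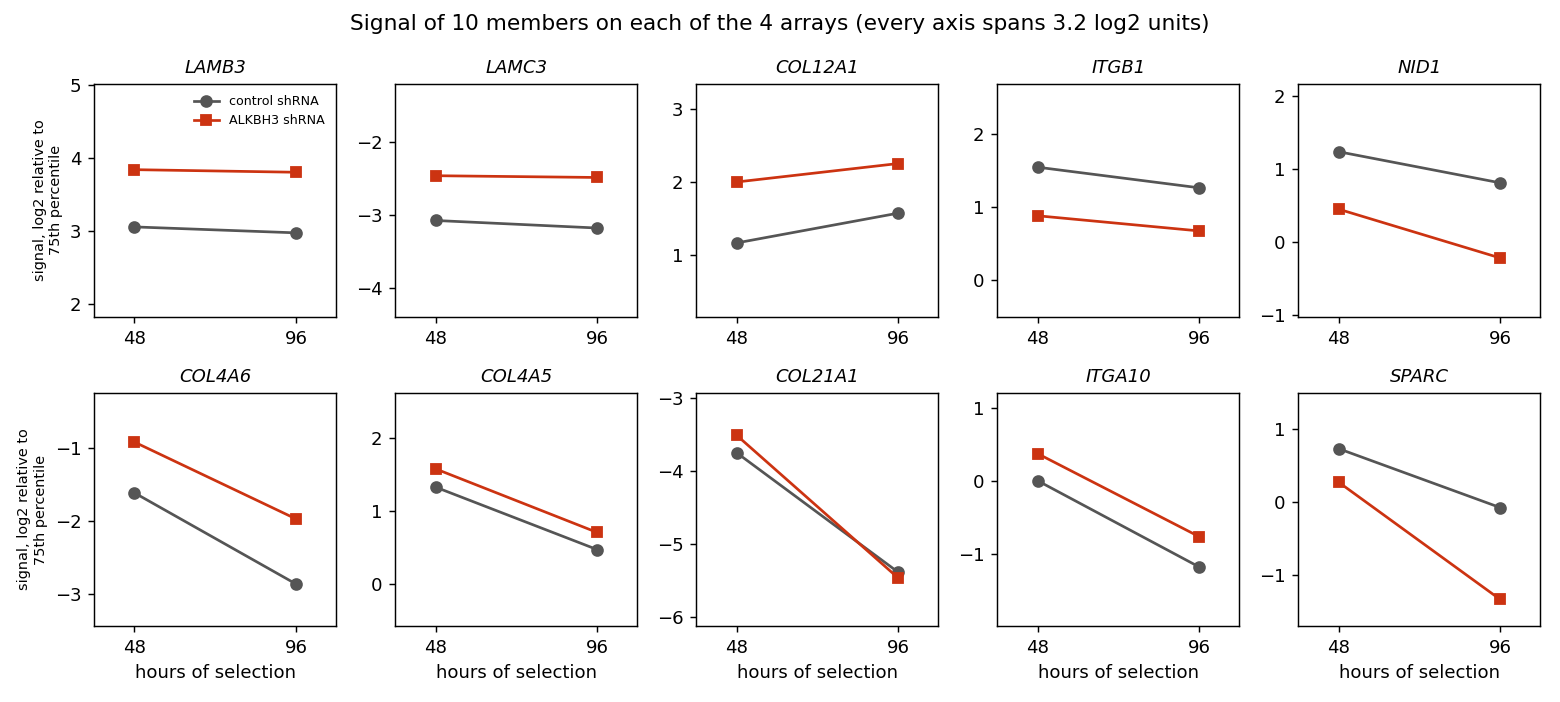
Signal (log2 relative to the array's 75th percentile) of 10 genes at 48 h and 96 h of selection, with circles for control shRNA and squares for ALKBH3 shRNA, 1 array per point and 3.2 log2 units on every vertical axis. LAMB3, LAMC3 and COL12A1 are higher and ITGB1 and NID1 lower with ALKBH3 shRNA at both times, whereas COL4A6, COL4A5, COL21A1 and ITGA10 are lower at 96 h with both shRNAs.

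Genes of the same pathways outside the families were counted in the same way, against 1% of all genes past the 2-fold and p cutoffs upward and 0.23% downward. Of 27 collagen processing enzymes and chaperones on the array, 25 were tested, 1 (4%) passed the cutoffs upward and 0 downward. That gene was LOXL3, a lysyl oxidase that crosslinks collagen, which rose by 1.03, while LOXL4, a relative, fell by 0.89 in the blocked limma fit (adjusted p = 0.037). Of 26 cytoplasmic partners of integrins all were tested and 0 passed the cutoffs, with 0 higher and 4 (15.4%) lower at an unadjusted limma p below 0.05, against 4.51% and 3.44% of all genes, and a median of -0.06. Of 27 other basement membrane and matrix proteins 20 were tested, with 1 (5%) past the cutoffs upward and 2 (10%) downward. HSPG2, which encodes perlecan of the basement membrane, had a signal of 5.42 with control and 4.22 with ALKBH3 shRNA after 48 h, and of 5.02 and 3.77 after 96 h, and fell by 1.22. FBN2, a fibrillin, fell by 1.12. LUM, a proteoglycan that is also in the fibroblast marker list, was above background on 3 of the 4 arrays and not on the 96 h control array. Its signal was -4.99 with control and -3.01 with ALKBH3 shRNA at 48 h and -4.21 with ALKBH3 shRNA at 96 h. The fitted LUM difference was 1.98, with 1.13 under normexp and 1.38 to 2.59 when each array was left out. LUM, HSPG2, FBN2 and LOXL3 had a limma adjusted p between 0.0308 and 0.0351 with time point as a block. HSPG2 was at -0.997 without the 96 h ALKBH3 shRNA array, FBN2 at -0.93 without the 48 h ALKBH3 shRNA array and -0.91 without the 96 h control array, and LOXL3 at 0.92 and 0.91 when the 48 h control or the 96 h ALKBH3 shRNA array was left out, 0.60 with normexp, 0.73 with the authors' values and 0.985 with quantile normalization. By the methods' t-test LOXL3 passed the cutoffs and HSPG2, FBN2 and LUM did not.

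Between 48 h and 96 h of selection, more of the matrix and integrin genes were lower than higher. At 2-fold and an unadjusted limma p below 0.05, 4 genes (5.8%) fell and 0 rose, against 0.785% and 0.244% of all genes. They were COL21A1, COL4A6, ITGA10 and ITGB3, of which ITGB3 entered the test only through the 48 h arrays, where it was brighter, so its call is no evidence of a 2-fold fall. Among the 68 genes above background on all 4 arrays, 3 (4.41%) fell at these cutoffs, against 0.592% of the 14020 genes so measured. At the p without a fold cutoff 20 genes (29%) were lower and 1 (1.45%), ITGAM, was higher, against 9.29% and 9.23% of all genes. The limma adjusted p called 0 genes without a block, of all 14782, of which 2738 had an unadjusted p under 0.05. With shRNA as a block it was below 0.05 for 19 genes that fell (27.5%) and 0 that rose, against 6.38% and 5.11% of all genes. The median log2 fold change of the 69 was -0.29, beside -0.01 over all genes. Without ITGB3, which is counted in each of these, 19 of 68 (27.9%) were lower at the p alone and 18 (26.5%) fell in the blocked fit, against 9.32% and 6.21% of genes above background on all 4 arrays. With both shRNAs 46 of the 69 (66.7%, against 39.9% of all genes) were lower and 13 (18.8%, against 36.2%) higher at 96 h. The arrays of the 2 time points did not overlap for 37 genes, against 52.7% of all genes. Since each time point lay on its own slide, these values compare slides as well.

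**Figure D3:**
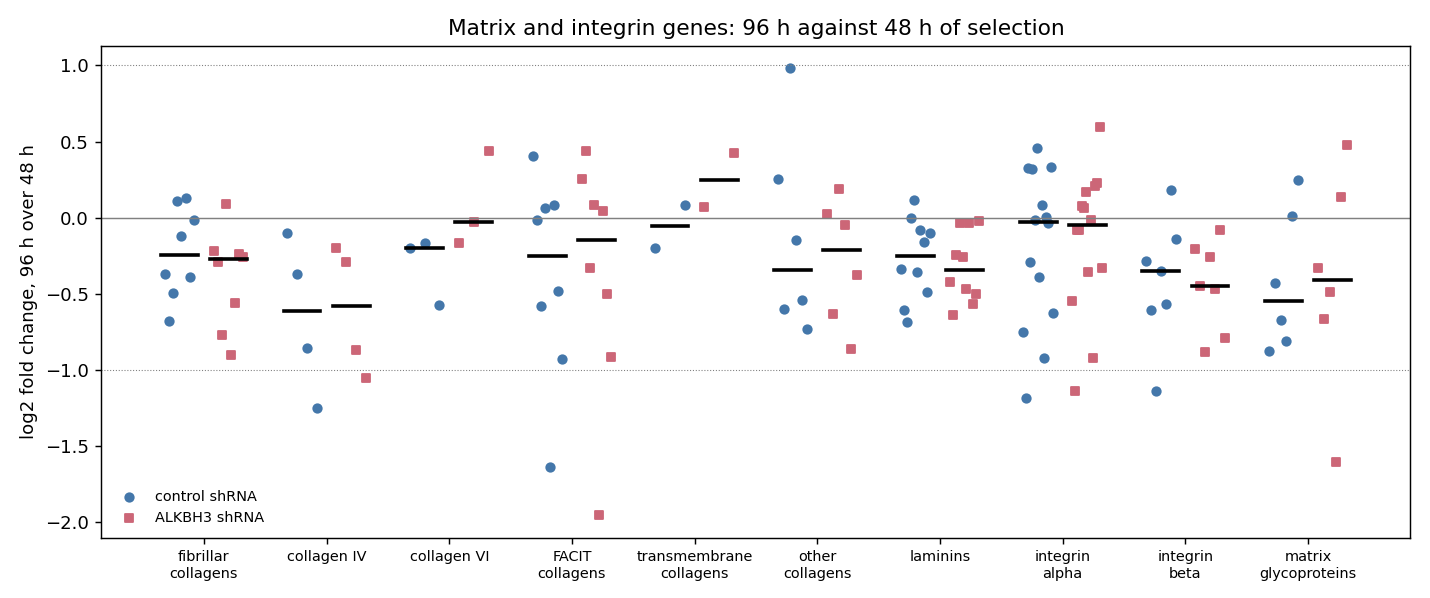
Log2 fold change, 96 h over 48 h (vertical axis), of each of 68 tested genes by family, with circles for control shRNA, squares for ALKBH3 shRNA, a black bar for the family median and dotted lines at a 2-fold change. Each point compares 1 array with 1 array on another slide. All 10 laminins had a negative mean difference, as did 7659 of all 14782 genes, and the lowest points are COL21A1, at -1.64 and -1.96.

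The minor type IV collagen chains fell together. COL4A5 and COL4A6 encode chains of the same trimer. COL4A5 had a signal of 1.33 with control and 1.58 with ALKBH3 shRNA after 48 h, and of 0.47 and 0.71 after 96 h. It fell by 0.86 on the log2 scale (SE 0.147, limma adjusted p = 0.13, and adjusted p = 0.0267 with shRNA as a block), with both 96 h arrays below both 48 h arrays. COL4A6 fell by 1.15 (SE 0.399, limma adjusted p = 0.253, and adjusted p = 0.0267 with shRNA as a block), from -1.62 to -2.86 with control and from -0.92 to -1.97 with ALKBH3 shRNA. Without the 48 h ALKBH3 shRNA array, COL4A6 was lower by 0.80, and without the 96 h control array by 0.70, neither past the cutoffs. The major chains COL4A1 and COL4A2 differed by -0.15 and -0.33, with an adjusted p of 0.267 and 0.0715 in the blocked limma fit. The difference between the 2 pairs of chains was not tested.

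Both pairs are transcribed head to head. In RefSeq on GRCh38.p14, the outermost starts of COL4A6 and COL4A5 lay 379 bases apart on chromosome X, and those of COL4A1 and COL4A2 126 bases apart on chromosome 13. The bases before the starts are shown because the genes that fell together share this interval. They are chrX:108439688-108439837 on the plus strand, chrX:108439459-108439608 on the minus strand and, for comparison, chr13:110307134-110307283 on the plus strand. Capitals mark the same letters as above. Neither X-linked stretch held any of the letters searched, and the COL4A2 stretch, which takes in the whole interval to COL4A1, held the NF-kB-like letters and GGGCGG.
COL4A5: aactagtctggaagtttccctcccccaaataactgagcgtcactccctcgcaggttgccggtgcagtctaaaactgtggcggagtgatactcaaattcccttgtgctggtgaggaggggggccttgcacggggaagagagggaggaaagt
COL4A6: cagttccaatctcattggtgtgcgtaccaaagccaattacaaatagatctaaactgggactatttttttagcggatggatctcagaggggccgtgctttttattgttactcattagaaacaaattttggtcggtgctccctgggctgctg
COL4A2: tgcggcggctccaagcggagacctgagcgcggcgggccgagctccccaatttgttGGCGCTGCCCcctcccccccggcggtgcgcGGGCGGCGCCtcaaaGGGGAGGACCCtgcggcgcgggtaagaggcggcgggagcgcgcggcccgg

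COL21A1, a minor collagen of the fibril-associated group, had the largest fall of the 69. Its signal was -3.75 with control and -3.51 with ALKBH3 shRNA after 48 h, and -5.38 and -5.46 after 96 h. It fell by 1.80 on the log2 scale (SE 0.123, limma adjusted p = 0.127, and adjusted p = 0.0267 with shRNA as a block). COL21A1 passed the cutoffs under every alternative tried with all 4 arrays, although its size depended on the processing. Its difference ranged from -1.92 to -1.68 when each array was left out, and was as small as -1.04 under another setting. COL9A2 and COL9A3, chains of the type IX collagen of cartilage, fell by 0.49 and 0.92 in the blocked fit, and COL9A1 differed by 0.06. COL9A3 was past the 2-fold cutoff without the 48 h control array (-1.10) or the 96 h ALKBH3 shRNA array (-1.11). COL8A1, COL18A1 and COL24A1 fell by 0.70, 0.61 and 0.63 in the same fit, and COL18A1, the precursor of endostatin, went from 4.11 to 3.51 with control and from 3.69 to 3.06 with ALKBH3 shRNA. Over the 31 collagens tested, 23 differences were negative and 8 positive, with a median of -0.22. Over all 14782 genes tested, 7659 were negative and 7123 positive.

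Integrin alpha subunits that bind collagen and laminin were among the falls. ITGA10, a collagen receptor subunit known from cartilage, was 0.01 with control and 0.38 with ALKBH3 shRNA after 48 h, and -1.18 and -0.76 after 96 h. It fell by 1.16 (SE 0.211, limma adjusted p = 0.136, and adjusted p = 0.0267 with shRNA as a block), and by just under 2-fold without the 48 h ALKBH3 shRNA array (-0.97), without the 96 h control array (-0.95), with normexp (-0.99) and with the authors' values (-0.997). ITGA7, a laminin receptor subunit of muscle, went from 1.37 to 0.45 with control and from 1.56 to 0.64 with ALKBH3 shRNA. It fell by 0.92 in the blocked fit (SE 0.127, limma adjusted p = 0.127, and adjusted p = 0.0267 with shRNA as a block), and was at -1.01 without the 48 h control array or the 96 h ALKBH3 shRNA array. ITGA1, which also binds collagen, fell by 0.65 in the blocked fit (limma adjusted p = 0.279, and adjusted p = 0.0329 with shRNA as a block). ITGA2 and ITGA3 differed by -0.19 and 0.02, and ITGA6 by 0.03, none past the test.

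ITGB3, which pairs with ITGAV, was -5.83 with control and -6.09 with ALKBH3 shRNA at 48 h and not well above background at 96 h, where it read -6.97 on both arrays. Against the lowest signal flagged above background on each 96 h array, ITGB3 was lower at 96 h by 1.498-fold. Some probes not flagged on those arrays read above that level, so this is no firm bound. The fit took the 96 h readings below background as they stood, and its difference of -1.01 (limma adjusted p = 0.127, and adjusted p = 0.0267 with shRNA as a block) therefore has no exact size. It was -0.31 with normexp, -0.73 with the authors' values, -0.96 with median centring, -0.998 with the percentile over probes above background on all arrays, and -0.88 without the 48 h control array, each short of the 2-fold cutoff. ITGB5, another partner of ITGAV, fell by 0.52 (limma adjusted p = 0.166, and adjusted p = 0.0371 with shRNA as a block), and ITGAV itself differed by -0.48 (limma adjusted p = 0.171, and adjusted p = 0.0629 with shRNA as a block). ITGB2, the leukocyte beta subunit, fell by 0.53 in the blocked fit, and ITGB1 and ITGB4 differed by -0.25 and -0.30. Of the 7 beta subunits tested 6 had a negative difference, and of the 14 alpha subunits 6 did, against 7659 of all 14782 genes.

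All 10 laminin chains tested had a lower mean at 96 h, with a median of -0.37, while 7659 of all 14782 genes tested had a lower mean. LAMA3 of the epithelial trimer passed the blocked limma fit. LAMA3 fell by 0.62 (SE 0.248, limma adjusted p = 0.292, and adjusted p = 0.0293 with shRNA as a block), from 2.88 to 2.27 with control and from 3.38 to 2.73 with ALKBH3 shRNA. LAMB3, its beta chain, differed by -0.06 (limma adjusted p = 0.952, and adjusted p = 0.63 with shRNA as a block). LAMB2, LAMB1 and LAMA5 differed by -0.41, -0.07 and -0.02.

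SPARC was lower at 96 h by 1.21 (SE 0.47, limma adjusted p = 0.285, and adjusted p = 0.0428 with shRNA as a block), from 0.74 to -0.07 with control and from 0.28 to -1.33 with ALKBH3 shRNA. It passed the 2-fold and p cutoffs with shRNA as a block, with normexp (-1.20), with the authors' values (-1.21) and without the 96 h control array (-1.84). NID1 and NID2 fell by 0.55 and 0.58 in the blocked fit, and FN1 was lower by 0.60 (limma adjusted p = 0.199, and adjusted p = 0.0783 with shRNA as a block). The genes with the largest positive differences that held with both shRNAs were COL26A1 (0.59), ITGAM (0.46), TNC (0.36), COL12A1 (0.33) and ITGA4 (0.31). ITGAM alone of these had an unadjusted limma p below 0.05, with a signal of -5.24 and -5.27 at 48 h and -4.91 and -4.67 at 96 h. The outside lists had medians of 0.0016 for collagen processing, 0.04 for integrin partners and -0.11 for other matrix proteins, and 0 of each past the 2-fold and p cutoffs.

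**Figure D4:**
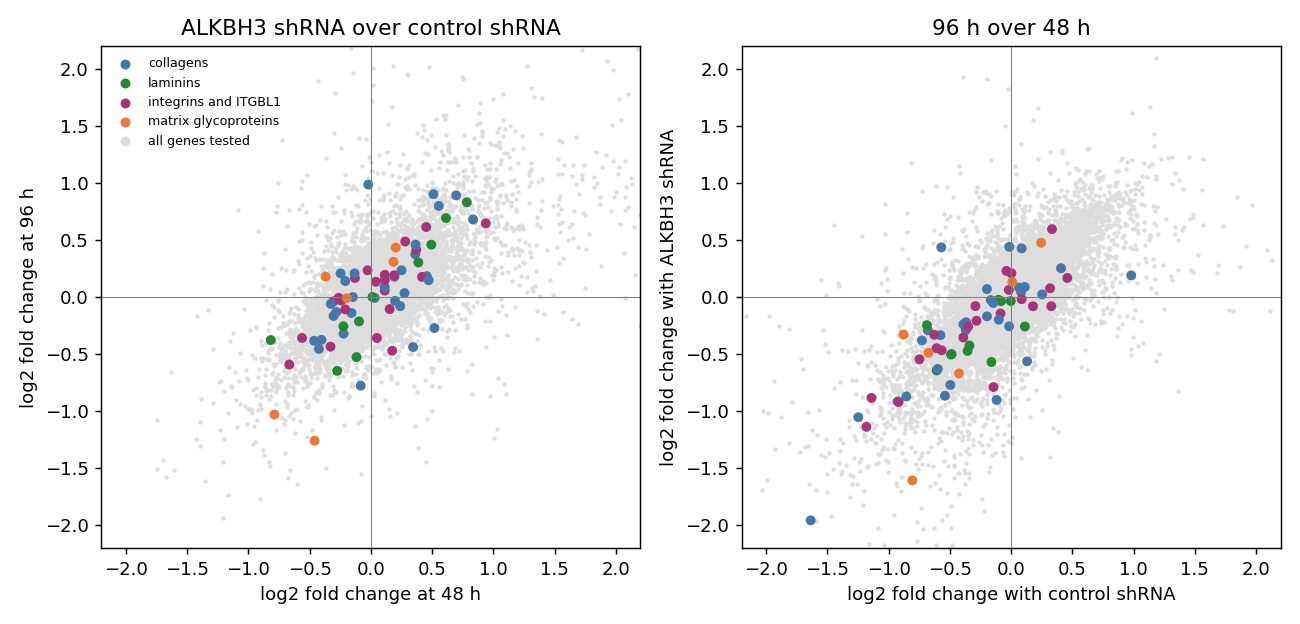
Log2 fold change of every gene tested (grey) and of the 69 matrix and integrin genes (coloured by class) in the 2 pairs of arrays of each comparison, ALKBH3 over control shRNA at 48 h and 96 h (left) and 96 h over 48 h with control and ALKBH3 shRNA (right). The axes stop at 2.2, which leaves out 46 and 32 genes, none of them coloured. The coloured points straddle 0 on the left and lie mostly in the lower left on the right, where 46 of 69 are lower with both shRNAs.

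The shRNA difference at 48 h and at 96 h rests on 1 pair of arrays each, so a change between time points could not be tested. The sign was the same at both for 53 of the 69 genes, against 10245 of all 14782 genes tested. COL6A3 differed most between the 2, with -0.02 at 48 h and 0.99 at 96 h, and its second probe gave 0.39 and 1.23. That second probe was not well above background on the 96 h control array, so its 1.23 has no exact size. SPARC went from -0.46 to -1.26 and COL26A1 from 0.52 to -0.27. No gene of the 69 had differences of opposite sign that were 1.5-fold or more at each time point. ITGBL1 had a signal between 0.60 and 0.80 on the 4 arrays, and differed by 0.09 between shRNAs and by -0.11 between time points, neither past the test.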

How the data were processed

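PC3 RNA from 2 shRNAs and 2 time points had been hybridised to 4 Agilent arrays in 1 colour. The authors deposited spot intensities (gProcessedSignal) that Agilent Feature Extraction 10.7.3.1, per the file headers, had corrected for background on each array alone, with detection flags, which are flags and not measurements on a scale. They also deposited a table of log2 values normalized between arrays, used only as an alternative. Precision is limited by how few arrays there are.

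Of 44495 spots per array 43118 were not controls. Log2 intensities were centred on each array's 75th percentile, and replicate spots averaged per probe. Probes were named through RefSeq accessions (24910 of 34127). Genes with a probe well above background on at least 2 of the 4 arrays (14782) were tested, each by its brightest such probe, with limma 3.58.1 in R 4.3.3 (lmFit, eBayes) without covariates. Calls used the study's cutoffs (2-fold, unadjusted p under 0.05). Benjamini-Hochberg adjustment covered all genes tested. "Rose" and "fell" are used for these calls or for an adjusted p below 0.05 in the blocked fit.

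The pairing by time point comes from the labels and the shared slide. Deviations of the arrays of a time point from their shRNA mean correlated at r = 0.687 across 14782 genes, which are not independent replicates. Steps were tested on simulated data. Members and lists were chosen with earlier results of these data known. Genes were named if past the cutoffs, among the 5 largest rises or falls with 1 direction in both pairs, the brightest of a family, or a chain partner of these. Others are said to be chosen later or are given within counts. Alternatives were other background corrections, scalings, filters, probe rules, tests, cutoffs, the block, and leaving out each array. Genes on chromosome 8 had no sequence shown. Results that need some items withheld here are not reported.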

Additional observations from a re-analysis of the deposited data

How the results depend on the processing

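Groups of 2 arrays, 1 cell line and the coincidence of time point with slide limit every value, and probes near background limit COL20A1, ITGA4 and ITGB3. The replicate block was the time point in the shRNA comparison and the shRNA in the time comparison. With it, 20 of the 69 genes were higher and 13 lower for ALKBH3 shRNA at an unadjusted limma p below 0.05. Over all 14782 genes 1910 were higher and 1619 lower in that fit. For 96 h, 5 of the 69 were higher and 34 lower, against 2294 and 2750 of all genes. At 2-fold and p the block added SPARC over time and changed no other call. In the shRNA comparison the 2-fold and p cutoffs called 1 gene higher without a filter on dim probes (COL22A1), 1 with the mean over probes and 1 with probes in place of genes (both COL20A1), and 5 higher and 2 lower at 1.5-fold. COL22A1 was above background on 0 arrays, so its call compares background readings. Both COL20A1 calls draw on its dimmer probe, above background on the ALKBH3 shRNA arrays only. The lower count at the p alone was 3 with normexp and 2 with the authors' values, against 445 and 438 of all genes. The methods' t-test gave 4 higher and 2 lower, against 462 and 582 of all genes. Probes in place of genes gave 11 higher, against 828 of all probes tested. The median was -0.013 with normexp, -0.012 with quantile normalization, -0.015 with the authors' values, 0.0019 with median centring, 0.045 with the percentile over probes above background, 0.059 without a filter, 0.031 with either stricter filter, 0.052 with the mean over probes and 0.019 with probes. Leaving out each array gave 0 to 2 higher, 0 to 2 lower, 5 to 8 higher and 0 to 7 lower at the p alone, and a median of -0.12 to 0.13. The lower count was 0 when the 48 h control or the 96 h ALKBH3 shRNA array was left out.

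In the time comparison the cutoffs called 10 lower at 1.5-fold, 2 lower with the methods' t-test, and 2 higher without a filter (COL6A5 and THBS2). COL6A5 was above background on 0 arrays and THBS2 on 1, so these calls rest on background readings. At the p alone, the higher count was 0 with normexp, 2 with median centring, 5 without a filter, 2 with a filter on all 4 arrays, 2 with probes, and 0 with the methods' t-test, which gave 10 lower. Over all genes, or probes, the higher counts in that order were 1373, 1768, 2274, 1329, 1768 and 1135, and the methods' t-test gave 1010 lower. The median was -0.22 with normexp, -0.27 with quantile normalization, -0.24 with median centring, -0.23 with the authors' values, -0.14 without a filter, -0.27 with a filter on all 4 arrays, -0.22 with the mean over probes and -0.20 with probes. Leaving out each array gave 2 to 6 lower, 0 to 3 higher and 14 to 20 lower at the p alone, and a median of -0.29 to -0.22. The cause was not tested for any of these. Over time, ITGA4 turned to -0.047 with normexp and -0.12 with the authors' values, and ranged from -0.16 to 0.78 when each array was left out, as COL12A1 did from -0.087 to 0.75. Both were negative when the 48 h control or the 96 h ALKBH3 shRNA array was left out (the latter -0.00979 and -0.00948). No other gene recomputed under these settings changed direction. The median of each family other than collagen VI changed sign under some setting in the shRNA comparison, mostly when an array was left out, and over time those of collagen VI, FACIT, transmembrane and other collagens and integrin alpha subunits did, while those of laminins, collagen IV, fibrillar collagens, integrin beta subunits and matrix glycoproteins stayed negative.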
